A study of Homo sapiens with 6 samples.

Results

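The glycolysis and hypoxia response genes are 42 human genes chosen by symbol for their known roles, with earlier results of these data known. They comprise the glycolytic enzymes, glucose and lactate transporters, the kinases that set the pace of glycolysis and of pyruvate oxidation, the oxygen sensors and hypoxia-inducible factor (HIF) subunits, and further targets of HIF. A probe was listed for 39 of the 42 genes, and 36 of these were detected and tested among 9944 genes in all. SLC16A1, SLC16A3 and CA9 were not analysed here. The cells were HEK293, a laboratory line of embryonic kidney origin, kept for 3 days in dishes. The first group of 3 samples had all-trans retinoic acid (tRA, a ligand of the retinoic acid receptors) and cAMP (the second messenger that activates protein kinase A) added to the medium, and the other 3 samples were uninduced controls in complete medium alone. Both agents were given together, so their effects cannot be told apart, and no dose is given. Oxygen and glucose supply are not described in the sample records. All 6 RNAs shared 1 Illumina chip, where the treated samples took the last 3 array positions and the controls the first 3; position on the chip and treatment cannot be told apart. Whether the 3 samples of a group were separate cultures is not stated, so the p-values rest on a spread that may be technical.

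Glycolysis splits glucose into pyruvate in the cytosol. Pyruvate is either reduced to lactate by lactate dehydrogenase or passed to the mitochondria through the pyruvate dehydrogenase complex, which the pyruvate dehydrogenase kinases switch off. In oxygenated cells the prolyl hydroxylases of the EGLN family mark the HIF alpha subunits for destruction through the ubiquitin ligase that contains VHL. When oxygen is short the alpha subunits, HIF1A and EPAS1, are stable, pair with ARNT on DNA and raise transcription of most glycolytic enzymes, of glucose transporters and of genes such as VEGFA, BNIP3 and CA9. HIF is therefore controlled largely at the protein, and the arrays measured RNA only.

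Between 14792 and 16103 of the 48803 probes (30.3% to 33.0%) were detected on an array. Genes that retinoic acid or cAMP is known to induce were read beside the labels, and all 8 passed the test upwards. CYP26A1, the retinoic acid hydroxylase, was 50.6-fold higher with tRA and cAMP (limma, adjusted p = 5.53e-09). These 8 genes were chosen with earlier results of these data known, so they are not an independent check of the labels. Of 9 genes known from the kidney lineage or from this line, 6 were detected on all 6 arrays, while PAX2, NEFM and INA were detected on none. In RNA from a whole dish, fewer cells of a type and less RNA per cell cannot be told apart.

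EPAS1 was higher with tRA and cAMP and was the 1 gene of the 36 that passed the test. No glycolytic enzyme, transporter, regulatory kinase or other HIF target passed it. A gene that did not pass is not thereby shown to be unchanged. Across all 9944 genes 1.11% were called higher and 1.46% lower (limma on background-corrected, quantile-normalised log2 intensities, Benjamini-Hochberg adjusted p under 0.05). Among the 36 genes, 1 was called higher and 0 lower. At an unadjusted p under 0.05, 3 of the 36 were higher (6.88% of all genes) and 1 lower (7.36% of all genes), 11.1% together against 14.2% of all genes. The arrays of the 2 groups did not overlap for 8 of the 36 genes (22.2%), against 18.9% of all genes. In 6 of the 8 the treated arrays were higher and in 2 lower, where 9.2% and 9.7% of all genes were so. The 2 combined shares lay near the background of the arrays. Of the 6 higher genes, PFKFB2, PFKFB3 and GAPDH were apart by only 0.007, 0.008 and 0.02 log2 units. No lean to either direction is read from the split of 6 and 2. The median log2 difference, tRA and cAMP minus control, was 0.06 over the 36 genes and 0.002 over all genes, with 21 of the 36 above 0, as were 50.4% of all genes, and 15 below. Apart from EPAS1 and EGLN1, the other 34 genes had differences between -0.37 and 0.37 and adjusted p-values between 0.239 and 0.991.

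**Figure D1:**
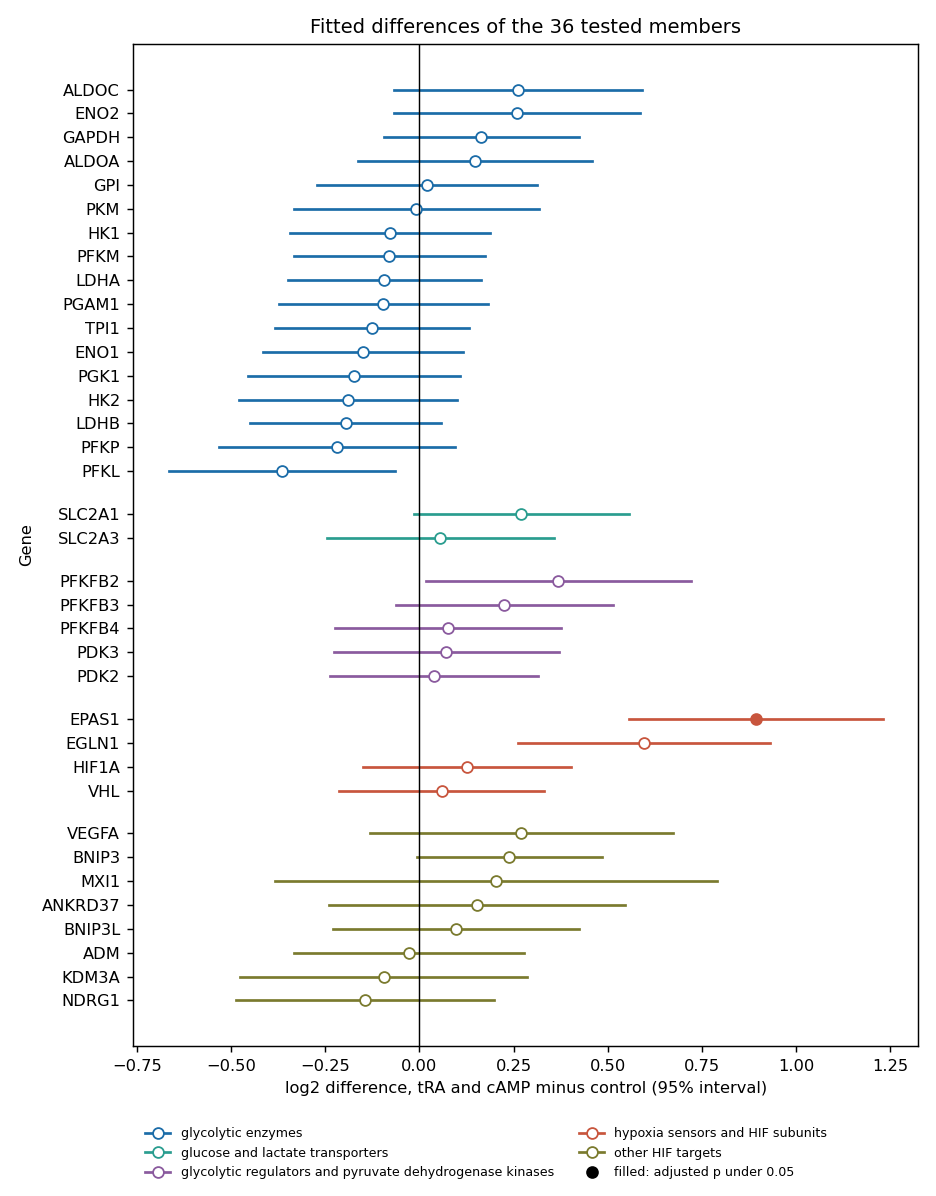
Fitted log2 difference (tRA and cAMP minus control, horizontal axis) of each of the 36 tested genes, grouped by role down the page, with 95% intervals from limma (n = 3 arrays a group); filled points passed the adjusted threshold. EPAS1 at 0.89 is the filled point, EGLN1 at 0.60 is next, and the other 34 genes lie between -0.37 and 0.37.

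The oxygen sensors and HIF subunits held the 2 largest differences. EPAS1 encodes HIF-2 alpha, the HIF alpha subunit best known from endothelium, kidney and the control of erythropoietin. Its probe (ILMN_1704753) read 10.88, 11.22 and 11.22 (log2 intensity) in tRA and cAMP samples 1 to 3, against 10.10, 10.08 and 10.47 in control samples 1 to 3. All 3 treated arrays lay above all 3 control arrays. The level averaged 11.11 ± 0.20 with tRA and cAMP and 10.22 ± 0.22 in controls (SD, n = 3 each), a log2 difference of 0.89 with a standard error of 0.15, or 1.86-fold (95% interval 1.47 to 2.35; limma, adjusted p = 0.0118). With the background left in the signal the difference was 1.73-fold. The direction was the same under 16 of 16 other ways of processing the arrays. Those that changed only the filter, probe choice, variance model or block left the difference at 0.89, so they could not change its direction. The call was lost in 5 of the 16, at adjusted p-values between 0.0554 and 0.059 (limma). These 5 left the arrays unnormalised, kept all dim probes, or left out treated sample 2 (0.0567), control sample 1 (0.0555) or control sample 2 (0.0554). EPAS1 ranked 116th among the 9944 genes by p-value.

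The endothelial markers were read beside EPAS1, which is abundant in endothelium. CDH5, KDR, TEK and CLDN5, 4 of the 6 with a probe, were detected on none of the 6 arrays. The summed raw intensity of the 6 markers was 1314 to 1818 with tRA and cAMP and 1840 to 1946 in controls. These sums include undetected probes and are neither background-corrected nor normalised. The median raw intensity over all probes was 229 to 271 on an array, so much of each sum may be background. VWF, the von Willebrand factor gene, read 7.11, 7.86 and 6.87 with tRA and cAMP, where 1 of the 3 arrays detected it, against 8.67, 8.83 and 8.91 in controls, where all 3 did. It was called lower (limma, adjusted p = 0.00447), and no fold is given because most of the treated values were not above background.

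EGLN1 encodes PHD2, the main oxygen-sensing prolyl hydroxylase, and is itself a HIF target. Its probe (ILMN_1749892) read 9.92, 9.97 and 9.69 in tRA and cAMP samples 1 to 3, against 8.98, 9.42 and 9.39 in control samples 1 to 3. The groups did not overlap, and control sample 1 was the lowest of the 6 arrays. The log2 difference was 0.60 with a standard error of 0.15 (1.51-fold, 95% interval 1.20 to 1.91), which did not pass the test across all genes (limma, adjusted p = 0.0738, unadjusted p = 0.00254). It passed in 2 of the 16 alternatives, each at a log2 difference of 0.47. These were the one with the background left in (limma, adjusted p = 0.0443) and the deposited normalised table (0.0446).

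**Figure D2:**
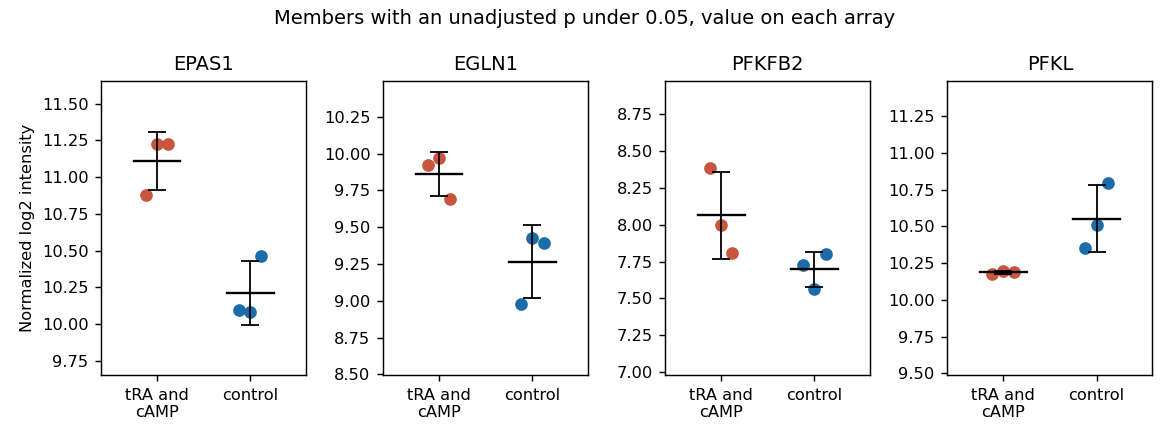
Normalised log2 intensity on each array for EPAS1, EGLN1, PFKFB2 and PFKL, with tRA and cAMP samples on the left and control samples on the right of each panel; points are single arrays and bars the mean ± SD (n = 3). In each panel the 2 groups do not overlap, with EPAS1 between 10.88 and 11.22 in treated samples and between 10.08 and 10.47 in controls.

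HIF1A, the other alpha subunit, read 11.10, 11.08 and 10.86 with tRA and cAMP, against 11.00, 10.82 and 10.84 in controls. The groups overlapped, and its log2 difference of 0.13 did not pass the test (1.09-fold, 95% interval 0.901 to 1.32; limma, adjusted p = 0.736). VHL, the substrate-recognition subunit of the ligase, differed by 0.06 (limma, adjusted p = 0.884). Set against each other on the same arrays, EPAS1 and HIF1A differed in their responses by 0.77 log2 units, and the 3 treated arrays did not overlap the 3 control arrays. An exact permutation test over the 6 samples gave p = 0.1, the smallest it can give (two-sided), and 0.333 after adjustment over 10 such pairs. With 3 arrays against 3 this test cannot pass 0.05, whatever the values. ARNT, the constitutive partner of both subunits, was detected on none of the 6 arrays, with raw intensities of 225 to 276 with tRA and cAMP and 229 to 249 in controls. EGLN3, the hydroxylase usually most responsive to hypoxia, was also undetected, at 266 to 320 with tRA and cAMP and 207 to 295 in controls. No change can be read for either gene from its probe.

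The 5′ flanks of 5 of the genes are shown here because the core of the hypoxia response element, ACGTG or GCGTG, is the sequence that HIF recognises. EPAS1 and EGLN1 had the 2 largest differences, and PGK1, LDHA and BNIP3 are textbook HIF targets. Each is the 250 bases before the RefSeq gene start on GRCh38.p14, written 5′ to 3′ on the strand of the gene, with ACGTG and GCGTG on either strand in capitals (a match on the other strand reads CACGT or CACGC, and CACGTG counts on both strands). The windows are chr2:46297157-46297406 on the plus strand for EPAS1, chr1:231422288-231422537 on the minus strand for EGLN1, chrX:78103998-78104247 on the plus strand for PGK1, chr11:18394313-18394562 on the plus strand for LDHA and chr10:131981924-131982173 on the minus strand for BNIP3.
EPAS1: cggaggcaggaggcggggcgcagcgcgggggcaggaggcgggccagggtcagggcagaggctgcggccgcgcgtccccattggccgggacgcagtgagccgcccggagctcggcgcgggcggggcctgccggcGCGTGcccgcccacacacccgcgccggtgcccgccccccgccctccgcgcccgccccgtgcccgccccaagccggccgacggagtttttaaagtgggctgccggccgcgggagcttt
EGLN1: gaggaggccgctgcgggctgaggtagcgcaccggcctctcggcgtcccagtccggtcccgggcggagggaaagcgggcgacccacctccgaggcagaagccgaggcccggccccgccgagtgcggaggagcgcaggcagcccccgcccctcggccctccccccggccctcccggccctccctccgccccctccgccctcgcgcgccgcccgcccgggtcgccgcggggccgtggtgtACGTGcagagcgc
PGK1: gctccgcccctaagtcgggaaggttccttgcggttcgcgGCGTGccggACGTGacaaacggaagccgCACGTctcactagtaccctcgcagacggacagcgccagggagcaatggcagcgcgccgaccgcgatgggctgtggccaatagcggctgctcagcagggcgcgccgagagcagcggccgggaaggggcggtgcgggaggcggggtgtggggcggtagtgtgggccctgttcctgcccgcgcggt
LDHA: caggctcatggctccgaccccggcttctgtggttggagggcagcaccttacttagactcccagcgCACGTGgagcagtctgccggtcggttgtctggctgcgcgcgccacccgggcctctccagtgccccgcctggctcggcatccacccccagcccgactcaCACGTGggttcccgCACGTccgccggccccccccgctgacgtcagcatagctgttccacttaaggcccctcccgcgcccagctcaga
BNIP3: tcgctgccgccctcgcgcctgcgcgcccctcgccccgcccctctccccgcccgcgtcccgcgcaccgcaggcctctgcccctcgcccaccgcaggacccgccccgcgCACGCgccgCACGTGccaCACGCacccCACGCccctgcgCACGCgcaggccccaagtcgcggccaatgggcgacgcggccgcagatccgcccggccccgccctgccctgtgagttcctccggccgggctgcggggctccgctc

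The EPAS1 flank held 1 match and the EGLN1 flank 1, and the flanks of PGK1, LDHA and BNIP3 held 3, 5 and 6; of these 5 genes EPAS1 alone passed the test. RefSeq windows of 300 bases (250 before to 50 after each gene start) were matched for 35 of the 42 genes, 67 windows in all; SLC2A3, SLC16A1, PFKFB2, VHL, BNIP3L, VEGFA and NDRG1 had none in the table. ACGTG or GCGTG stood in 65.7% of these 67 windows and in 48.4% of all 35116 windows. Of the 35 genes, 32 had a match in at least 1 window, and ARNT, EGLN3 and PGAM1 did not. Genes with several windows had more chances of a match, and the share per gene over all genes was not computed. The cAMP response element TGACGTCA was in 1.49% of the 67 windows (1 window, of LDHA) and in 1.85% of all windows. The retinoic acid receptor half-sites AGGTCA and AGTTCA, again on either strand, were in 11.9% and 1.49% of the 67 windows, against 13.8% and 10.4% of all windows. A match describes the letters of a window and does not show that a factor binds there.

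None of the 17 glycolytic enzymes passed the test. Their median log2 difference was -0.09 (0.002 over all genes), 12 were below 0 and 5 above, and 1 had an unadjusted p under 0.05. PFKL, the liver-type subunit of phosphofructokinase, the committed step of glycolysis, had the smallest p-value. Its probe (ILMN_1713037) read 10.18, 10.19 and 10.19 with tRA and cAMP, against 10.35, 10.51 and 10.80 in controls. The treated arrays were nearly equal and all lay below the controls, which were more spread out. The level averaged 10.19 ± 0.01 with tRA and cAMP and 10.55 ± 0.23 in controls, a log2 difference of -0.37 (standard error 0.14, 95% interval 0.630 to 0.957 as a fold; limma, unadjusted p = 0.0222, adjusted p = 0.239). The muscle-type and platelet-type subunits, PFKM and PFKP, had log2 differences of -0.08 and -0.22, with overlapping groups.

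Hexokinases HK1 and HK2, which trap glucose in the cell by phosphorylation, had log2 differences of -0.08 and -0.19, and GPI, the next enzyme, 0.02. Among the aldolases, ALDOC, the brain-type isozyme, read 11.65, 11.62 and 12.08 with tRA and cAMP, against 11.48, 11.65 and 11.44 in controls. Its groups overlapped and treated sample 3 was the highest (log2 difference 0.26; limma, adjusted p = 0.485). Without treated sample 3 the difference was 0.11. ALDOA, the ubiquitous isozyme, differed by 0.15 and triose phosphate isomerase, TPI1, by -0.12. The middle of the pathway gave similar values: PGK1, which makes the first ATP, differed by -0.17, PGAM1 by -0.10 and PKM, the pyruvate kinase of dividing cells, by -0.01.

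GAPDH, often used as a loading control, read 15.94, 15.71 and 15.79 with tRA and cAMP, against 15.64, 15.68 and 15.62 in controls. The groups did not overlap, but by only 0.02 log2 units, and the difference of 0.16 did not pass the test (1.12-fold, 95% interval 0.936 to 1.34; limma, adjusted p = 0.595). LDHB, the heart-type lactate dehydrogenase, read 14.38, 14.37 and 14.42 with tRA and cAMP, against 14.54, 14.52 and 14.69 in controls. Its treated arrays all lay below the controls (log2 difference -0.20; limma, adjusted p = 0.498). LDHA, the muscle-type subunit and a textbook HIF target, differed by -0.09 with overlapping groups. ENO2, the neuronal enolase, differed by 0.26 and ENO1, the ubiquitous enolase, by -0.15. The responses of this pair differed by 0.41 log2 units with no overlap between the arrays of the groups (exact permutation p = 0.1, adjusted 0.333). GAPDH, ENO1, TPI1, LDHA and LDHB were bright, at 28.7% to 78.2% of the highest raw intensity on the array with tRA and cAMP and 35.4% to 80.7% in controls. Compression of differences at that brightness was not tested.

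The glucose transporter SLC2A1 (GLUT1), the main HIF-responsive carrier of glucose into dividing cells, read 10.77, 10.94 and 11.07 with tRA and cAMP, against 10.59, 10.59 and 10.79 in controls. Treated sample 1 lay just below control sample 3, so the groups overlapped. The log2 difference was 0.27 (1.21-fold, 95% interval 0.990 to 1.47; limma, adjusted p = 0.383). SLC2A3 (GLUT3), the high-affinity carrier best known from neurons, read 13.46, 13.58 and 13.56 with tRA and cAMP, against 13.29, 13.43 and 13.71 in controls. The 3 treated values lay within the range of the controls, and the difference of 0.06 took the other sign without normalisation (-0.016) and without control sample 1 (-0.042). The lactate carriers SLC16A1 and SLC16A3 were not analysed here.

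On the probe used for each gene, all 5 tested regulators had differences above 0, with a median of 0.08, and none passed the test. Without normalisation between arrays 3 of the 5 lay below 0, and the median of all genes was then -0.10. PFKFB2, the heart-type isoform of the bifunctional enzyme that makes and degrades the allosteric activator of phosphofructokinase, read 8.39, 8.001 and 7.81 with tRA and cAMP, against 7.73, 7.56 and 7.80 in controls (probe ILMN_1796560). The groups were apart by 0.007 log2 units only, and treated sample 1 was the highest. The log2 difference was 0.37 with a standard error of 0.16 (1.29-fold, 95% interval 1.01 to 1.65; limma, unadjusted p = 0.0415, adjusted p = 0.325). It was 0.21 without treated sample 1 and 0.20 with the background left in. PFKFB3, the isoform with the strongest kinase activity and a HIF target, read 11.54, 11.64 and 11.90 with tRA and cAMP, against 11.48, 11.39 and 11.53 in controls. Its groups were apart by 0.008 log2 units (difference 0.23; limma, adjusted p = 0.495), and the difference was 0.12 without treated sample 3. PFKFB4 differed by 0.08. Of the pyruvate dehydrogenase kinases, PDK2 differed by 0.04 and PDK3 by 0.07. The other tested probe of PDK3, which was dimmer, differed by -0.34, so the sign for PDK3 depends on the probe. PDK1, the kinase best known as a HIF target, was undetected on all 6 arrays, with raw intensities of 329 to 368 with tRA and cAMP and 350 to 370 in controls.

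None of the 8 other HIF targets passed the test. Their median log2 difference was 0.13, with 5 above 0 and 3 below. BNIP3, a mitophagy receptor of the mitochondrial outer membrane, read 12.15, 12.25 and 12.15 with tRA and cAMP, against 11.95, 11.91 and 11.98 in controls. All treated arrays lay above all controls, with little spread in either group. The log2 difference was 0.24 (1.18-fold, 95% interval 0.995 to 1.40; limma, unadjusted p = 0.0555, adjusted p = 0.370). VEGFA, the angiogenic growth factor, read 8.54, 8.03 and 8.44 with tRA and cAMP, against 7.79, 8.38 and 8.03 in controls. Its values overlapped widely (difference 0.27; limma, adjusted p = 0.565), and single arrays moved the difference, to 0.13 without control sample 1 and to 0.43 without control sample 2. BNIP3L, the other mitophagy receptor, differed by 0.10, and ANKRD37, an ankyrin repeat protein, by 0.15. ADM, the vasodilator adrenomedullin, differed by -0.03, NDRG1, a stress-responsive gene, by -0.14, and KDM3A, a histone demethylase, by -0.09. MXI1, an antagonist of MYC, read 9.86, 8.65 and 8.81 with tRA and cAMP, against 8.78, 9.001 and 8.93 in controls. Treated sample 1 stood above all the others, and the interval was the widest of the 36 (0.767 to 1.73 as a fold around 1.15). Its log2 difference ranged between -0.17 and 0.43 over the 16 alternatives.

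The 95% intervals rest on a spread between arrays that may be technical, so they may be too narrow for separate cultures. The 95% interval lay within 1.5-fold of no change for 28 of the 36 genes (77.8%), against 75.5% of all genes. It lay within 2-fold for 35 of the 36 (97.2%), EPAS1 being the exception, against 96.6% of all genes. The median size of the difference, without its sign, was 0.15 log2 units over the 36 genes and 0.13 over all genes.

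**Figure D3:**
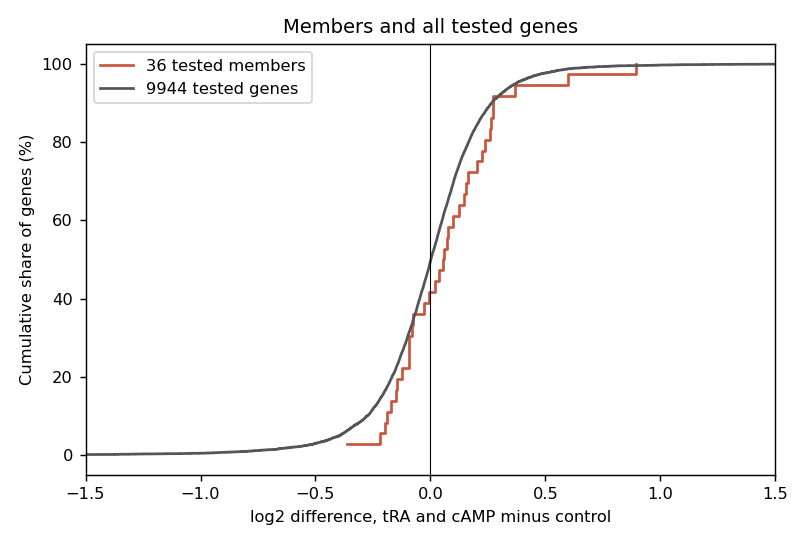
Cumulative share (vertical axis) of fitted log2 differences, tRA and cAMP minus control (horizontal axis), for the 36 tested glycolysis and hypoxia response genes and for all 9944 tested genes. The curves have medians of 0.06 and 0.002, and the step at the far right of the first is EPAS1 at 0.89.

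More than 1 tested probe was available for 12 of the 36 genes. All tested probes of a gene had the same sign in 6 of them and mixed signs in the other 6, which were GAPDH, HIF1A, PDK3, PKM, TPI1 and VHL. The widest gap was in PDK3, at -0.34 and 0.07 for its 2 probes. GAPDH ranged over its 3 probes between -0.06 and 0.16, and HIF1A between -0.06 and 0.16. Both HK2 probes were below 0, at -0.39 and -0.19, and both PFKFB3 probes above 0, at 0.20 and 0.23. EPAS1, EGLN1, PFKL and PFKFB2 each rest on 1 tested probe. PGAM1, SLC2A3 and GAPDH have near-identical copies elsewhere in the genome, among them PGAM4 and SLC2A14, and their probes may read these too, so those values are uncertain.

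**Figure D4:**
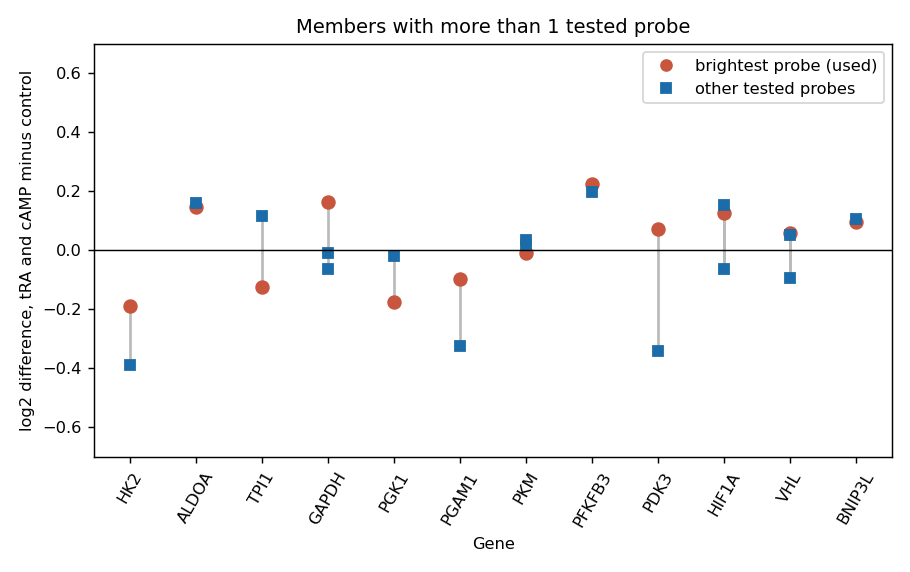
Fitted log2 difference (tRA and cAMP minus control, vertical axis) of every tested probe of the 12 genes that have more than 1. Probes of 6 genes fall on both sides of 0, and the widest gap is between the PDK3 probes at -0.34 and 0.07.

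Related isozymes were compared by the difference between their responses on the same arrays. Of 14 pairs, 10 could be tested. The 2 groups did not overlap for 3 of them, EPAS1 over HIF1A and ENO2 over ENO1 as given above, and SLC2A3 over SLC2A1 at -0.21 log2 units. Each gave an exact permutation p of 0.1, the smallest that 3 arrays against 3 allow, and 0.333 after adjustment over the 10 pairs. Among all single genes 18.9% did not overlap. No such share was computed for pairs over all genes, so the count of 3 is not read as more than background. The other 7 pairs overlapped, among them PFKM over PFKL at 0.28, LDHB over LDHA at -0.10 and BNIP3L over BNIP3 at -0.14.

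The wider pathway was read from 6 further lists with 165 genes, of which 113 were tested. Changes were called in 4 of the 113, against 2.56% of all genes, and all 4 stood among the 37 tested further HIF targets. Of these 37, 27.0% had an unadjusted p under 0.05 (limma), against 14.2% of all genes. The groups did not overlap for 35.1% of the 37, against 18.9% of all genes. The list was chosen with earlier results of these data known and includes GPRC5A, so these shares are not an independent test of HIF targets. The lowest difference among the 37 was -1.27, in a gene that was not called. GPRC5A, an orphan receptor also known as a retinoic acid-induced gene, read 11.02, 11.11 and 10.72 with tRA and cAMP, against 9.69, 8.96 and 9.18 in controls, and rose 3.19-fold (limma, adjusted p = 0.00088). SPAG4, a protein of the nuclear envelope, was detected on all 3 treated arrays and on no control array, so only its treated arrays brought it into the test. It was called higher (limma, adjusted p = 0.0213). Set against the dimmest signal that counted as detected on the control arrays, its treated mean was 1.25-fold higher. With the background left in, its log2 difference was 0.32 (limma, adjusted p = 0.149). The SPAG4 call was lost in 10 of 15 alternatives. HMOX1, the haem oxygenase of the stress response, read 8.07, 7.95 and 8.07 with tRA and cAMP, against 9.30, 8.95 and 8.87 in controls. CXCR4, a chemokine receptor, read 9.10, 9.31 and 8.97 with tRA and cAMP, against 10.36, 10.02 and 10.07 in controls. HMOX1 fell 2.01-fold (1.01 on the log2 scale, and 0.65 with the background left in) and CXCR4 fell 2.04-fold (limma, adjusted p = 0.00327 each), with no overlap between the groups. The median of the 37 was 0.06.

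None of the 15 tested further glycolytic isozymes and side enzymes was called (median -0.09). The smallest p-values were those of SLC2A12, a glucose transporter, at -0.52 (limma, adjusted p = 0.0523), and TIGAR, which lowers the activator of phosphofructokinase, at -0.39 (adjusted p = 0.277). None of 20 genes of gluconeogenesis and glycogen was called (median -0.07). PYGL, the liver glycogen phosphorylase, read 11.79, 11.56 and 11.29 with tRA and cAMP, against 12.16, 12.12 and 12.19 in controls, 1.53-fold lower without passing the test (limma, adjusted p = 0.0518; it passed in 5 of 16 alternatives). EPM2A, the glycogen phosphatase laforin, differed by 0.55 (adjusted p = 0.117), or 0.29 with the background left in, and was detected on 1 of 3 control arrays. None of 11 genes of the pentose phosphate pathway was called (median 0.001); TKTL1, a transketolase-like protein, differed by -0.67 (adjusted p = 0.226), or -0.32 with the background left in, and was detected on 1 of 3 treated arrays, and H6PD, the hexose phosphate dehydrogenase of the endoplasmic reticulum, by 0.32 (adjusted p = 0.326).

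None of 10 genes for the entry of pyruvate into mitochondria was called (median 0.05). PDHA1, the catalytic subunit that the pyruvate dehydrogenase kinases phosphorylate, read 12.78, 12.72 and 12.81 with tRA and cAMP, against 13.18, 13.29 and 13.13 in controls. Its groups lay clearly apart, but the difference of -0.43 did not pass the test (1.34-fold lower; limma, adjusted p = 0.0928; it passed in 3 of 16 alternatives). LIPT1, a lipoyltransferase, differed by 0.32 (adjusted p = 0.267), or by -0.06 without control sample 3. None of 20 regulators of the HIF pathway was called (median 0.01). SIAH2, a ubiquitin ligase for prolyl hydroxylases, differed by -0.37 (adjusted p = 0.176), and CITED2, which competes with HIF for the coactivators CBP and p300, by -0.33 (adjusted p = 0.258).

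**Figure D5:**
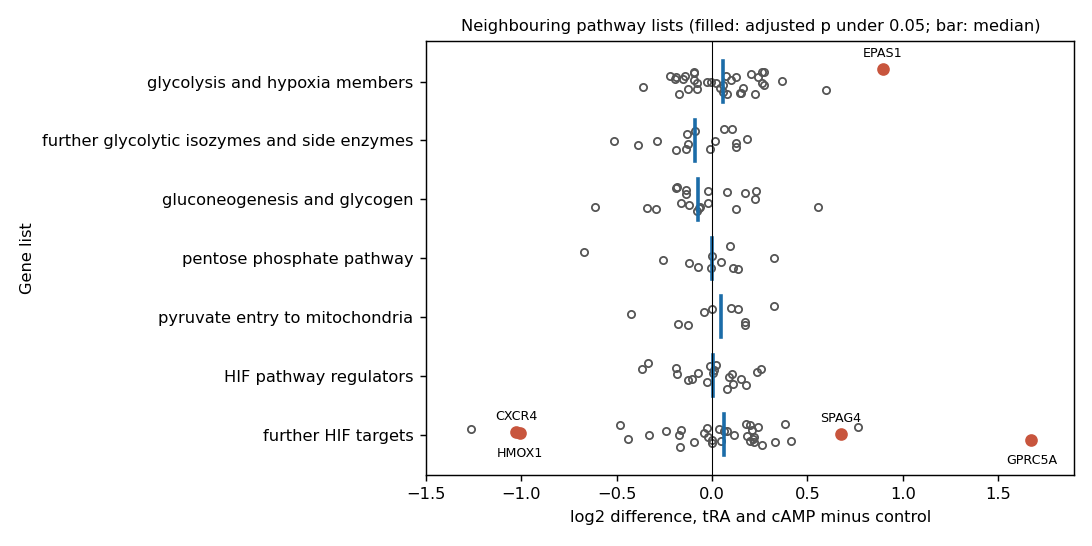
Fitted log2 difference (tRA and cAMP minus control) of every tested gene in the glycolysis and hypoxia response set and in the 6 further pathway lists; bars mark list medians and named points passed the adjusted threshold. EPAS1 is named in the first, GPRC5A, SPAG4, HMOX1 and CXCR4 in the further HIF targets, and the list medians lie between -0.09 and 0.06.

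Markers of other cells were read on the same arrays. Fibroblast and mesenchymal markers (11 with a probe) summed to raw intensities of 4927 to 6623 with tRA and cAMP and 10672 to 14024 in controls, with S100A4, LUM, TAGLN and COL3A1 called lower; COL1A2, DCN, THY1, PDGFRB and FAP were detected on no array. Markers of blood cells summed to 2260 to 2680 with tRA and cAMP and 2339 to 3184 in controls, and epithelial markers to 9528 to 12217 with tRA and cAMP and 10470 to 12452 in controls, with none called in either list. PTPRC, CD3E, CD79A and HBB of the blood list and EPCAM, CDH1 and CLDN4 of the epithelial list were undetected throughout. The HEK293 list summed to 29328 to 36573 with tRA and cAMP and 45114 to 51599 in controls, with EYA1 lower and GATA3 higher. All these sums are of raw intensity, without background correction or normalisation, and include undetected probes. The part of the marker shifts in the differences above was not tested.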

How the data were processed

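RNA from 6 samples of HEK293 cells (3 with tRA and cAMP, 3 controls) was labelled and hybridised to Illumina bead arrays. The deposited table holds, per the file headers, each probe's mean intensity and its detection p-value on every array, without background correction or normalisation; BeadStudio is named in the submitters' processing notes, and its settings are not given in the sources used here. A second deposited table of normalised intensity, with steps not given, served as an alternative. No counts or depths exist for arrays, so their number limits the precision.

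Intensities were corrected and normalised with neqc in limma 3.58.1 (R 4.3.3): normexp background correction against 759 negative controls, whose number and spread were read back from the steps of the detection p-values, an offset of 16, quantile normalisation and log2. A fold is thus on the scale of the corrected signal plus this offset and understates the change of dim genes. Testing a probe required detection p-values under 0.01 throughout 1 group or both. Of 48803 probes, 28098 had 1 gene name, 13 several and 20692 none; names are those of the platform annotation, and 0 symbols changed when updated. Each gene was represented by its tested probe of highest mean level (9944 genes). Groups were compared with lmFit and eBayes without covariates, and p-values were adjusted by Benjamini-Hochberg over the 9944 genes, with a threshold of 0.05. Pairs of isozymes were compared by an exact two-sided permutation test. The fitting was tested on simulated data.

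The genes and the lists were chosen with earlier results of these data known. Values per array are given for genes past the threshold, for those with an unadjusted p under 0.05, and for the 2 genes of smallest p in each role; GAPDH, LDHB, HIF1A and MXI1 were added after their values were seen. In the other lists the genes past the threshold are named, or otherwise the 2 of smallest p. Promoter windows are RefSeq's on GRCh38.p14 and were searched on both strands. Figures were drawn with matplotlib 3.10.9 under Python 3.11.15. The 16 alternatives changed the background correction, normalisation, filter, probe choice, variance model, a block for the replicate number, or left out 1 array.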

Additional observations from a re-analysis of the deposited data

How the results depend on the processing

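Changing only the variance model or the block cannot change a direction. Of the 36 genes tested, 23 kept their direction in all 16 alternatives, and EPAS1 and EGLN1 were the 2 called in any. The count of these genes called higher was 2 with no background correction and 2 with the deposited normalised table, where EGLN1 was added, and 0 with no normalisation or with no filter on dim probes, where EPAS1 had adjusted p = 0.0581 and 0.059 (limma); it was 0 to 1 when single arrays were left out. With no filter 18852 genes were tested. The median difference of the 36 was -0.036 with no normalisation, which moved the median of all genes to -0.101; relative to that shift it was 0.065, and EPAS1 was 0.89. Leaving out single arrays gave medians of 0.0058 to 0.071. Among all genes, 43 were higher with no normalisation and 53 with no filter (110 as reported), and 78 were lower with no filter and 89 with detection required on all arrays (145 as reported). The share of calls that were higher was 26.4% with no normalisation and 43.1% with it. Without single arrays, 52 to 83 genes were higher, 85 to 113 were lower, and 3 to 6 isozyme pairs did not overlap. Among the genes with values per array chosen by rule and those named in other lists, directions reversed for SLC2A3 (-0.016 with no normalisation, -0.042 without control sample 1, and between -0.042 and 0.176 over the arrays left out), LIPT1 (-0.062 without control sample 3, range -0.062 to 0.416) and CD68 (0.0073 without treated sample 1, 0.021 without control sample 1, range -0.271 to 0.021). Of the 36, GPI, PKM, PFKFB4, PDK2, PDK3, VHL, BNIP3L, ADM, NDRG1, ANKRD37, KDM3A and MXI1, none of them called under any alternative, also took the other sign in at least 1. Without normalisation SLC2A1 was 0.17, ALDOC 0.16 and BNIP3 0.14. The causes were not tested. Samples that share a replicate number did not deviate together (correlations 0.055, -0.047 and -0.036). These values show no large effect shared by number, but cannot show whether the samples were paired. With the replicate number as a block 84 genes were higher and 110 lower. EPAS1 then had adjusted p = 0.0193 (limma), and no call among the 36 genes changed. Signal over background limits the 5 genes whose mean log2 intensity was under 9 (HK2, PDK2, PFKFB2, VEGFA and ANKRD37), and for ARNT, EGLN3 and PDK1, undetected throughout, no change could be read.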
